A study of Mus musculus with 6 samples.

Results

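The genes described here are Trp53, which encodes the transcription factor p53, and 29 genes that it regulates or that regulate it, 30 genes in all of the 32028 summarised in the series. They were chosen by symbol as a known pathway, with earlier results of these data known. Of the 30, 29 passed the filter on low counts and were tested among 12745 genes. The libraries came from mouse embryonic fibroblasts immortalized with SV40 large T antigen and exposed to an AAV8 carrying Cre under the CMV promoter, and each line is a clone grown from 1 cell. The 3 knockout clones came from Macf1flox/flox mice and are described as Macf1-/-, and the 3 het clones came from Macf1flox/+ mice and are described as Macf1-/+. All 6 clones therefore share large T and the Cre exposure, and no clone carries 2 intact Macf1 alleles. The series asks what loss of Macf1, a giant linker of actin and microtubules, does to ciliogenesis and polarity. The number of embryos behind each genotype and their age are not stated, so all p-values below refer to the spread among clones. Because each library is bulk RNA, fewer expressing cells and less RNA per cell cannot be told apart.

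p53 is held low in unstressed cells by Mdm2, a ubiquitin ligase that marks it for degradation, and by Mdm4, which blocks its transactivation domain. Mdm2 is itself a p53 target, which closes a feedback loop, and DNA damage or oncogene signals release p53 to switch on genes of cell cycle arrest, apoptosis and DNA repair. In cultured mouse embryonic fibroblasts the p19Arf and p53 pathway drives senescence. SV40 large T binds the DNA-binding domain of p53 and also binds the Rb family, and in cells that carry it p53 protein accumulates in a complex that is poor at activating its targets. Large T is a viral gene, and neither its RNA nor any protein or p53 activity was measured here.

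Estimated counts totalled 16581833 to 18209673 in the knockout clones and 15661342 to 17614982 in the het clones. Macf1 itself stood at 331 ± 27.9 CPM (counts divided by the TMM-scaled library size) in knockout clones and 655 ± 66.6 CPM in het clones (SD, n = 3 clones each), and fell by 0.99 on the log2 scale (adjusted p = 0.00307, edgeR quasi-likelihood test). The label fibroblast was checked against 10 fibroblast markers. Their summed level was 5599 to 8119 CPM in knockout clones and 9002 to 12501 CPM in het clones, mostly from Fn1 and Vim. Col1a1 and Col1a2, which encode the chains of type I collagen, reached at most 13.8 and 1.23 CPM in knockout clones and were at least 1018 and 408 CPM in het clones. Thy1 did not exceed 0.0598 CPM in any clone, Lum had no counts in any, and Dcn had none in knockout clones. The knockout clones thus lacked the collagen part of the fibroblast profile, and the part of this difference in the results below was not tested. Of 7 epithelial markers none exceeded 1 CPM, and markers of blood cells summed to at most 5.71 CPM in knockout and 6.07 CPM in het clones, and those of endothelial cells to at most 3.15 and 2.70 CPM. Over all genes 28.1% passed an adjusted p of 0.05 between the genotypes. Het replicate 1 correlated with het replicates 2 and 3 at 0.955 and 0.948 in log2 CPM, while the other pairs within a genotype correlated at 0.977 to 0.994. These are correlations across genes, which are not independent replicates.

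p53 binds a 20-base element made of a pair of 10-base half-sites, each with a CNNG core, and matches to it are shown first. Binding was not measured, so neither a match nor its absence settles whether a gene is a direct target. The windows searched ran from 250 bases before to 50 after each annotated start (RefSeq sequences, build GRCm38.p6), and 22 of the 30 genes matched a window. The p53 consensus site was searched with no spacer, at most 3 mismatches and all 4 core bases in place; the consensus is its own reverse complement, so a search of 1 strand covers both. It was found for 5 of the 22 genes (22.7%), against 441 of 27025 genes (1.63%) in the whole table. With at most 1 or 2 mismatches the search found 1 of the 22 genes (4.55%), against 0.0814% and 0.392% of all genes, and with 4 mismatches 5 of the 22, against 5.52% of all genes. The limit of 3 was set after these counts and the genes' own matches had been seen, so the shares are a description. Many known p53 elements lie in first introns or further upstream, outside these windows. The sites are printed 5′ to 3′ with the cores in capitals, for Ccng1 with 1 mismatch and for Aen, Bbc3, Sesn1 and Trp53 with 3 mismatches each, and for comparison that of Cdkn1a, the p21 gene, with 1 mismatch:
Ccng1: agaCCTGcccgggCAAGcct
Aen: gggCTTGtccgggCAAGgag
Bbc3: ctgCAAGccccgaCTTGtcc
Sesn1: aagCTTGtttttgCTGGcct
Trp53: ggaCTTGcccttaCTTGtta
Cdkn1a: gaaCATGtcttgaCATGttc
The Ccng1 site lies at chr11:40755462-40755481 on the minus strand, 195 bases before the start. That of Bbc3 lies at chr7:16309486-16309505 and that of Aen at chr7:78895937-78895956, both on the plus strand.

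Whole windows, chosen after the values were seen, are shown for Ccng1, the gene with the closest match, and for Btg2 and Eda2r, the genes with the largest changes that passed. They span chr11:40755237-40755536, chr1:134079106-134079405 and chrX:97377160-97377459, all on the minus strand, and the p53 site in the Ccng1 window is in capitals. Neither the Btg2 nor the Eda2r window held a site by this search.
Ccng1: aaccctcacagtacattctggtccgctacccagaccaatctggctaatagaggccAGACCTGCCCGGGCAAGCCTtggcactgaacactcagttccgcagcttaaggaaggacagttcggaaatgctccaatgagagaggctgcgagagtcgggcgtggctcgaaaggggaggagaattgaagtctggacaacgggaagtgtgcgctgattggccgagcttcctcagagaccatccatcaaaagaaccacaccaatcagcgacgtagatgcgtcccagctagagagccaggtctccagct
Btg2: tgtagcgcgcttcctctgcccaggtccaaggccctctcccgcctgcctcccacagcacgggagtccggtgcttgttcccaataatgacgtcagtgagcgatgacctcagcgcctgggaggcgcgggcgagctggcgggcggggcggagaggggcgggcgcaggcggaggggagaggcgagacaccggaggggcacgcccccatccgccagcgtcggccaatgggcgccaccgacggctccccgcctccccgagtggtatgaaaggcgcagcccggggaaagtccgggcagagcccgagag
Eda2r: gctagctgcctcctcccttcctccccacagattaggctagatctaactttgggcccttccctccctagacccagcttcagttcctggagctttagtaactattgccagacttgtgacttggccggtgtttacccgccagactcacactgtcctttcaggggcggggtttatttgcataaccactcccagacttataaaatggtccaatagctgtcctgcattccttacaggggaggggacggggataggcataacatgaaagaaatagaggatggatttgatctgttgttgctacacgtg

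Most of the pathway showed no difference that passed. In simulated counts the same procedure recovered 4.5% of 1.5-fold and 44.8% of 2-fold changes. Genes that did not pass are therefore not shown to be unchanged. Of the 29 tested genes, 3 were higher in knockout clones (10.3%), 1 was lower (3.4%) and 25 did not pass, where 13.9% of all tested genes were higher and 14.2% lower (28.1% in either direction). Eda2r, Polk and Xpc were the genes that rose and Btg2 the gene that fell. The median log2 fold change of the 29 genes was -0.27, and -0.00061 over all tested genes, and 21 of the 29 values were below 0 (72.4%, against 50.1% of all tested genes). The median of these genes was -0.12 with the local chromosome median subtracted and -0.18 on the log2(FPKM + 1) scale. Knockout and het clones were fully separated for 11 of the 29 genes (37.9%), against 47.5% of all tested genes. At an unadjusted p under 0.05 there were 11 of the 29, against 41.4% of all tested genes.

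**Figure D1:**
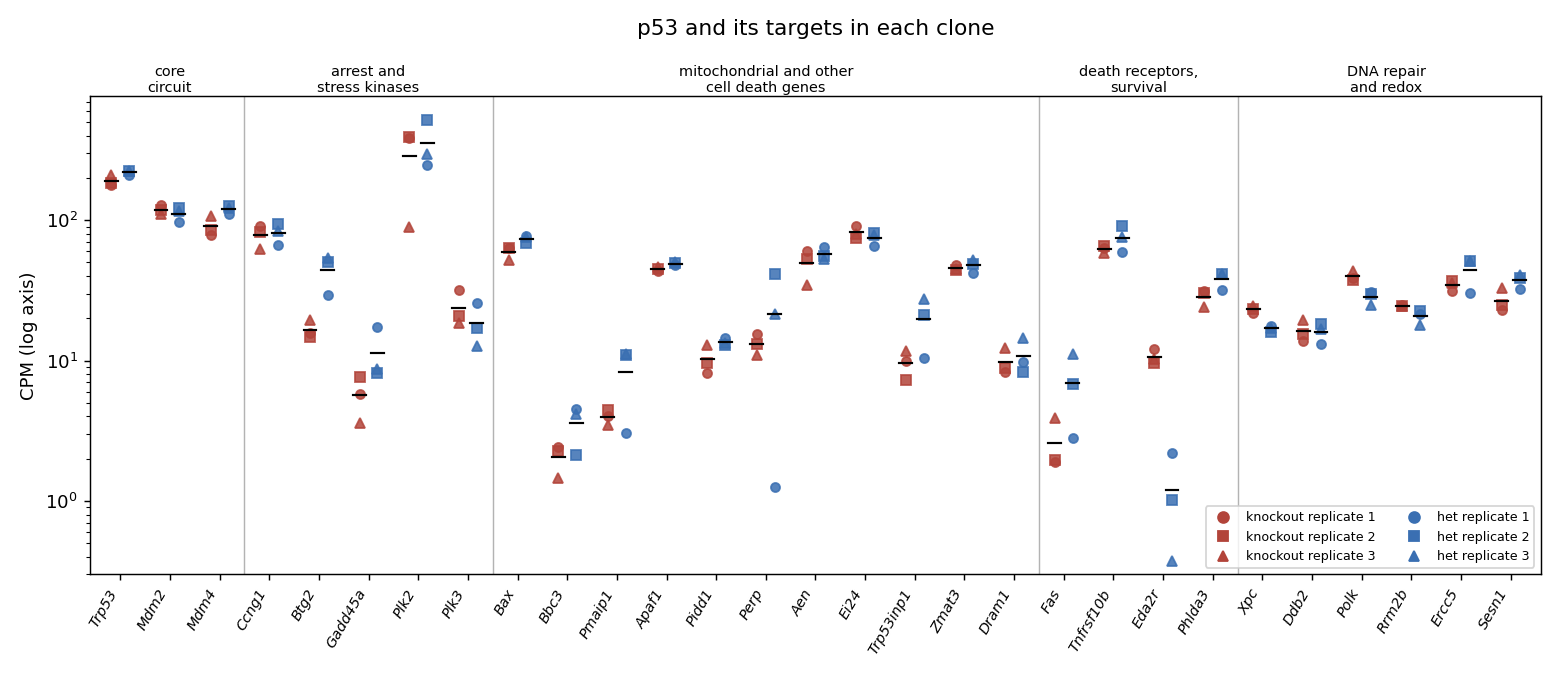
Levels of the 29 tested genes in each clone, in CPM on a log axis, knockout clones (red) to the left of het clones (blue), with a bar at the mean of each genotype and a separate symbol for each replicate. The clones of the genotypes are fully separated for 11 of the 29 genes, and Eda2r stands at 9.65 to 12.1 CPM in knockout clones and 0.376 to 2.21 CPM in het clones.

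Trp53 (chromosome 11, 69580359 to 69591873, GRCm38) measured 179, 185 and 211 CPM in knockout clones, against 208, 225 and 224 CPM in het clones. The highest knockout clone lay just above the lowest het clone, so the groups overlapped. The log2 fold change was -0.19 with a 95% interval of -0.43 to 0.04 (adjusted p = 0.19, edgeR), so a loss of more than 0.43 lay outside the interval. Mdm2 (chromosome 10, 117688875 to 117710758) measured 127, 119 and 110 CPM in knockout clones, against 96.6, 122 and 116 CPM in het clones. The clones were interleaved, with a log2 fold change of 0.09 and an interval of -0.19 to 0.37 (adjusted p = 0.596, edgeR). Mdm4, the third member of the core circuit, measured 78.0, 85.3 and 108 CPM in knockout clones, against 111, 126 and 121 CPM in het clones. Every knockout clone was below every het clone, and the difference missed the threshold (log2 fold change -0.40, adjusted p = 0.0676, edgeR). The difference passed in 2 of 16 alternative settings, with DESeq2 (adjusted p = 0.0271) and, in edgeR, without knockout replicate 3 (0.0147). Around Mdm4 on chromosome 1 the median log2 fold change of 41 tested genes was -0.21. With this local median taken out the value for Mdm4 was -0.19 (adjusted p = 0.348, edgeR).

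Per length, Trp53 was among the most abundant of the genes. In the deposited FPKM values, summed over the listed transcripts of a gene, it stood at 111 ± 10.5 in knockout clones and 122 ± 6.92 in het clones (SD, n = 3 each). Plk2, a polo-like kinase, was alongside it at 106 ± 63.1 and 128 ± 51.6 FPKM, within its spread, followed by Bax at 70.7 ± 7.31 and 85.9 ± 5.67 FPKM and Mdm2 at 56.6 ± 5.22 and 54.1 ± 6.89 FPKM. At the low end were Eda2r with 1.74 ± 0.219 FPKM in knockout and 0.173 ± 0.115 FPKM in het clones, where it was the lowest of the 28 genes with values, Bbc3 with 0.95 ± 0.284 and 1.62 ± 0.476 FPKM, Trp53inp1 with 1.26 ± 0.585 and 2.46 ± 1.20 FPKM, and Pmaip1 with 1.55 ± 0.169 and 3.20 ± 1.79 FPKM. The death genes of the pathway thus ranged from Bax near the top to Bbc3 and Pmaip1 near the bottom. The median over the 28 genes with values was 8.33 FPKM in knockout and 9.18 FPKM in het clones. No FPKM values were used here for Pidd1 and Trp53i11.

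Counts resolved by transcript separated forms of Mdm2 that start at different places. The gene has an upstream promoter before exon 1 and a second, p53-responsive promoter in intron 1. The 5 annotated transcripts that start in exon 1 of Mdm2-201 summed to 69.1, 60.5 and 58.5 CPM in knockout clones, against 40.1, 30.6 and 51.7 CPM in het clones. All knockout clones were above all het clones in this sum. The 3 transcripts that start downstream of that exon, in intron 1 or exon 2, summed to 55.8, 52.7 and 44.8 CPM in knockout clones, against 42.8, 78.2 and 55.5 CPM in het clones. Here the clones overlapped, and het replicate 2 was the highest of all. Most of this sum came from Mdm2-209, annotated for nonsense-mediated decay and starting within exon 2 (43.1 ± 3.93 CPM in knockout and 51.4 ± 16.4 CPM in het clones). These classes were redrawn once after their sums had been seen, and no test was made on them. Mdm2-201, the main coding form, stood at 56.1 ± 8.22 CPM in knockout and 29.0 ± 11.4 CPM in het clones (log2 fold change 0.95, SE 0.31), which did not pass with transcripts as units (adjusted p = 0.122, edgeR) and did in the authors' deposited table (log2 fold change 0.91, adjusted p = 0.0285). Transcripts of 1 gene share most exons, so their separate levels are estimates by the quantifier.

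**Figure D2:**
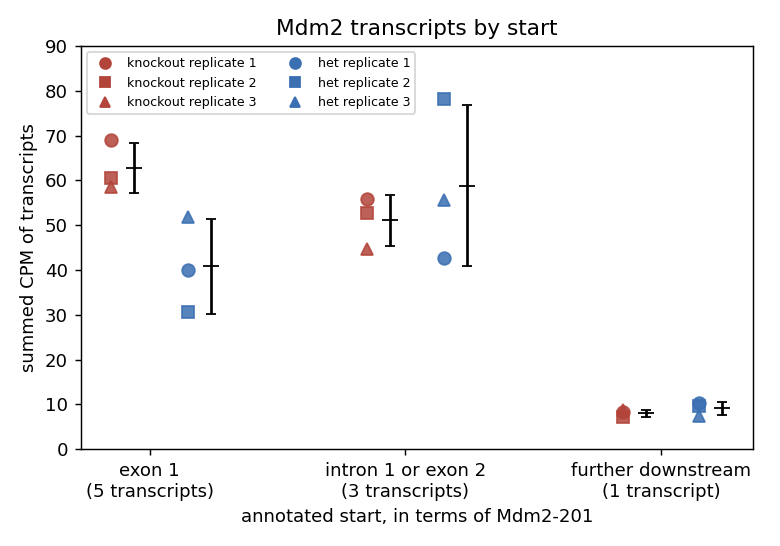
Summed CPM of Mdm2 transcripts by the place of their annotated start, per clone, with mean and SD beside the points (n = 3 clones per genotype, knockout in red to the left of het in blue). Transcripts starting in exon 1 sum to 58.5 to 69.1 CPM in knockout clones and 30.6 to 51.7 CPM in het clones, while the other classes overlap. Most of the exon 1 sum is Mdm2-201.

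Over the whole set, 75 of 141 annotated transcripts in the counts were tested and 2 passed, Btg2-201 (log2 fold change -1.35, adjusted p = 0.0318, edgeR) and Eda2r-201 (3.37, adjusted p = 0.0199, edgeR), where 7.94% of all tested transcripts passed. The authors' deposited table lists 51 transcripts of 28 of the genes, and 4 of them had an adjusted p under 0.05, where 14.0% of all its transcripts did. Besides Mdm2-201 these were Eda2r-201 (3.31, adjusted p = 1.99e-08), Btg2-201 (-1.39, adjusted p = 0.000175) and Trp53-205 (-1.10, adjusted p = 0.0405) in the authors' deposited table. Trp53-205 is a minor processed transcript with 5 exons, at 4.86 ± 1.16 CPM in knockout and 10.2 ± 0.757 CPM in het clones. The main coding forms Trp53-201 and Trp53-203 stood at 78.7 ± 3.55 and 95.8 ± 7.58 CPM in knockout clones, against 87.8 ± 27.6 and 98.3 ± 23.3 CPM in het clones.

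Among targets that slow the cell cycle, Btg2 differed. Btg2 (chromosome 1, 134075170 to 134079120, minus strand), an antiproliferative cofactor of mRNA deadenylation, measured 15.7, 14.7 and 19.4 CPM in knockout clones, against 29.5, 50.2 and 53.5 CPM in het clones. The groups did not overlap, and it fell by 1.42 on the log2 scale (SE 0.24, interval -1.99 to -0.85, adjusted p = 0.00716, edgeR). It passed in all 16 alternative settings, with adjusted p of 1.06e-06 to 0.0411. Ccng1, cyclin G1, a direct target that recruits a phosphatase to Mdm2 and carries the closest promoter match printed above, measured 91.1, 82.1 and 62.0 CPM in knockout clones, against 66.3, 93.7 and 83.0 CPM in het clones. The clones overlapped throughout (log2 fold change -0.05, interval -0.48 to 0.38, adjusted p = 0.866, edgeR).

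The other arrest and stress genes varied between clones of the same genotype. Gadd45a, a growth arrest and DNA damage gene, stood at 5.70 ± 2.03 CPM in knockout and 11.4 ± 5.12 CPM in het clones without overlap (log2 fold change -0.999, adjusted p = 0.103, edgeR), and its highest clone was het replicate 1. Plk2 measured 385, 391 and 89.1 CPM in knockout clones, against 248, 516 and 295 CPM in het clones. Knockout replicate 3 stood 4.38-fold below the highest knockout clone, and the difference of genotypes had an interval of -1.72 to 1.14. Plk3 stood at 23.7 ± 7.26 CPM in knockout and 18.5 ± 6.72 CPM in het clones (adjusted p = 0.432, edgeR).

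Of the genes for mitochondrial and other cell death, 0 of the 11 tested passed in edgeR, against 28.1% of all tested genes, and 2 of them had an unadjusted p under 0.05, against 41.4%. With library totals Bax passed (adjusted p = 0.049, edgeR), and with DESeq2 Trp53inp1 did (0.024). Bax, which permeabilizes the outer mitochondrial membrane, measured 63.1, 63.2 and 51.6 CPM in knockout clones, against 77.2, 68.3 and 75.7 CPM in het clones. The groups did not overlap (log2 fold change -0.31, SE 0.12, adjusted p = 0.0831, edgeR). Around Bax on chromosome 7 the median log2 fold change of 41 tested genes was -0.33, and with this local median taken out the value for Bax was 0.015.

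Bbc3 encodes Puma and Pmaip1 encodes Noxa, BH3-only proteins that neutralize Bcl-2 relatives. Bbc3 measured 2.44, 2.27 and 1.45 CPM in knockout clones, against 4.48, 2.13 and 4.13 CPM in het clones, with het replicate 2 inside the knockout range (log2 fold change -0.80, SE 0.39, adjusted p = 0.168, edgeR). Pmaip1 measured 4.03, 4.42 and 3.46 CPM in knockout clones, against 3.05, 10.9 and 11.1 CPM in het clones. Het replicate 1 was below every knockout clone and the other het clones were above them (log2 fold change -1.07, SE 0.48, adjusted p = 0.137, edgeR). Perp, a tetraspan protein of desmosomes and apoptosis, repeated that split with 15.4, 13.03 and 10.9 CPM in knockout clones, against 1.26, 41.3 and 21.4 CPM in het clones. Its het clones spanned 32.9-fold, and no direction could be given (interval -3.19 to 1.78).

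None of the remaining death genes passed in edgeR with all clones and the filter on low counts. Apaf1, the scaffold of the apoptosome, stood at 44.8 ± 1.37 CPM in knockout and 49.0 ± 1.33 CPM in het clones, without overlap but with a log2 fold change of only -0.13 (adjusted p = 0.295, edgeR). Zmat3, a zinc-finger RNA-binding protein, stood at 45.7 ± 1.96 and 47.6 ± 5.03 CPM, and Ei24, a protein of the endoplasmic reticulum, at 82.3 ± 8.39 and 75.0 ± 8.48 CPM. Aen, an apoptosis-enhancing nuclease, stood at 49.3 ± 13.2 CPM in knockout and 57.2 ± 5.94 CPM in het clones. Dram1, an autophagy regulator, stood at 9.74 ± 2.14 and 10.8 ± 3.20 CPM and Pidd1, the scaffold of the PIDDosome, at 10.2 ± 2.42 and 13.6 ± 0.802 CPM. The clones of Pidd1 did not overlap (log2 fold change -0.41), and it passed without knockout replicate 3 (adjusted p = 0.0462, edgeR). Trp53inp1, which encodes a p53-induced stress protein, measured 10.002, 7.31 and 11.7 CPM in knockout clones, against 10.5, 21.2 and 27.4 CPM in het clones. Het replicate 1 lay inside the knockout range and the other het clones above it (log2 fold change -1.02, SE 0.36, adjusted p = 0.0772, edgeR). Trp53i11 was close to silent and was not tested, with 1 count in the 3 knockout clones together and 31 in the het clones, which is 31.9-fold lower in knockout clones (95% counting interval 5.32 to 1302).

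Among receptors, Eda2r showed the largest fitted log2 fold change of the 29 tested genes. Eda2r (chromosome X, 97333840 to 97377216, minus strand), a receptor of the tumour necrosis factor family for ectodysplasin A2, measured 12.1, 9.65 and 10.2 CPM in knockout clones, against 2.21, 1.01 and 0.376 CPM in het clones. All knockout clones were above all het clones, a rise of 3.14 on the log2 scale (SE 0.55, interval 1.83 to 4.45, adjusted p = 0.00796, edgeR). It passed in all 16 alternatives, with log2 values from 1.22 on the log2(FPKM + 1) scale, which understates low genes, to 3.91 without het replicate 1. The het clones spanned 5.89-fold, with het replicate 1 highest. Fas, a death receptor, measured 1.89, 1.97 and 3.87 CPM in knockout clones, against 2.81, 6.85 and 11.1 CPM in het clones. The groups overlapped through het replicate 1 (log2 fold change -1.42, SE 0.55, adjusted p = 0.095, edgeR).

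Tnfrsf10b, the mouse receptor for Trail, stood at 62.3 ± 3.89 CPM in knockout and 75.2 ± 15.3 CPM in het clones (adjusted p = 0.24, edgeR). Phlda3, an inhibitor of Akt at the membrane, measured 31.2, 30.2 and 24.1 CPM in knockout clones, against 31.8, 41.7 and 41.5 CPM in het clones. Het replicate 1 stood next to the highest knockout clone, and the groups did not overlap (log2 fold change -0.43, SE 0.16, adjusted p = 0.0825, edgeR).

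DNA repair genes gave the other 2 rises. Xpc (chromosome 6, 91489305 to 91515888), which detects lesions in global nucleotide excision repair, measured 21.9, 23.2 and 24.6 CPM in knockout clones, against 17.8, 16.0 and 17.0 CPM in het clones. The groups did not overlap (log2 fold change 0.46, SE 0.12, adjusted p = 0.0283, edgeR). Polk (chromosome 13, 96480690 to 96542579), a translesion DNA polymerase, measured 39.0, 37.4 and 43.3 CPM in knockout clones, against 30.7, 29.9 and 25.0 CPM in het clones (log2 fold change 0.48, SE 0.12, adjusted p = 0.0261, edgeR). Both differences were small, and both calls were lost when any clone but het replicate 1 was left out, with adjusted p of 0.0606 to 0.108 for Xpc and 0.053 to 0.072 for Polk (edgeR). Xpc also lost its call with library totals (0.0605).

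The other repair genes did not pass. Ddb2, which recognizes ultraviolet lesions, stood at 16.2 ± 3.02 CPM in knockout and 16.0 ± 2.58 CPM in het clones, and it overlaps Acp2 on the opposite strand, whose level of 74.0 and 69.2 CPM was far higher. Rrm2b, the p53-inducible subunit of ribonucleotide reductase, stood at 24.6 ± 0.246 and 20.7 ± 2.49 CPM without overlap (adjusted p = 0.186, edgeR). Ercc5, the endonuclease Xpg, measured 31.3, 36.9 and 35.8 CPM in knockout clones, against 30.1, 51.4 and 51.5 CPM in het clones, with het replicate 1 below all knockout clones. Sesn1, a stress-inducible inhibitor of mTORC1 signalling, measured 22.8, 24.8 and 32.6 CPM in knockout clones, against 32.4, 38.7 and 40.6 CPM in het clones. Only het replicate 1 and knockout replicate 3 overlapped (log2 fold change -0.48, SE 0.17, adjusted p = 0.0729, edgeR).

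**Figure D3:**
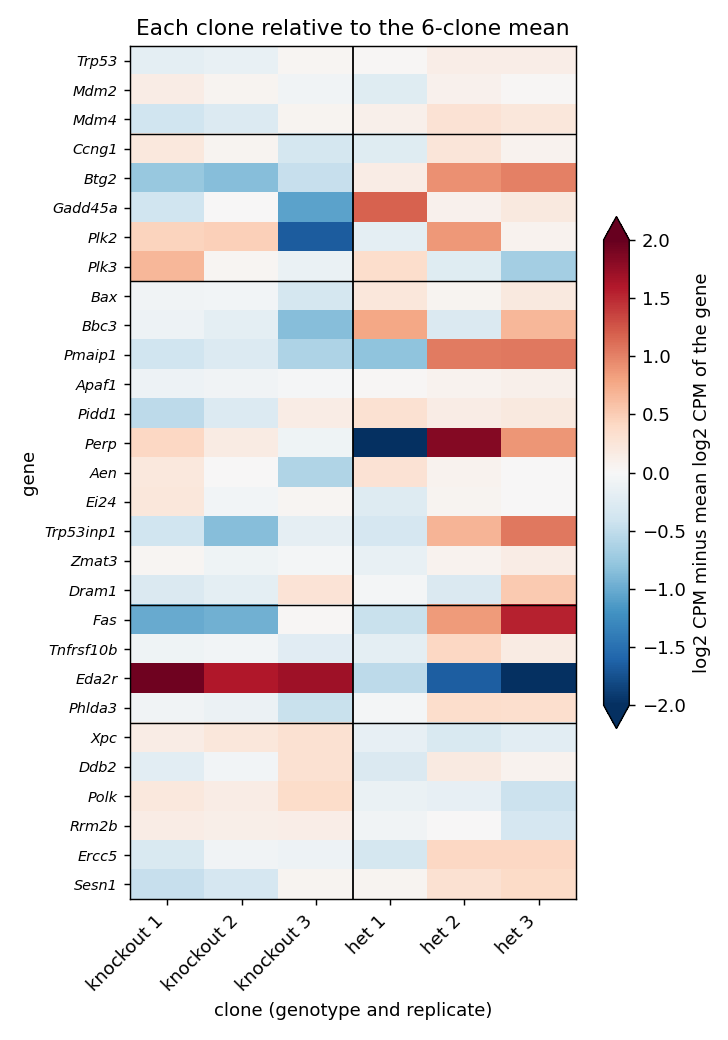
Log2 CPM of each tested gene in each clone minus the mean over the 6 clones, knockout clones to the left of the line and het clones to the right, genes in rows by role. Het replicate 1 departs from het replicates 2 and 3 for Pmaip1, Perp, Trp53inp1, Fas and Ercc5, and Eda2r is high in all 3 knockout clones; the colour scale ends at -2 and 2.

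The het clones were not alike in this pathway. Het replicate 1 was the lowest of the 3 het clones for 18 of the 29 genes (62.1%), against 38.4% of all tested genes. In the knockout clones the lowest was replicate 1, 2 and 3 for 10, 7 and 12 genes. The highest clone was more than 2-fold above the lowest for 3 of the 29 genes among knockout clones and for 9 among het clones. Over 12432 tested genes above 0 in every clone it held for 1545 in knockout clones and 1767 in het clones. Relative to the mean of het replicates 2 and 3, het replicate 1 had 4.005% of the Perp level, 27.7% for Pmaip1, 31.2% for Fas, 43.1% for Trp53inp1, 57.0% for Btg2 and 58.4% for Ercc5. It went the other way for Gadd45a, at 205%, and for Eda2r, at 319%.

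Without het replicate 1 the count of lower genes was 9 of 29 (31.0%), against 15.6% of all tested genes in that fit, and 3 were higher (10.3%), against 13.5%. The 9 genes that fell were Btg2, Pmaip1, Trp53inp1, Ercc5, Fas, Perp, Phlda3, Tnfrsf10b and Sesn1, with log2 fold changes from -0.42 for Tnfrsf10b to -1.80 for Fas and adjusted p from 0.000799 for Btg2 to 0.0497 for Sesn1 (edgeR). Het replicate 1 was the lowest het clone for all 9, and leaving out a low het clone by construction moves a gene in this direction. For 4 of the 9 it lay within the range of the knockout clones. The 3 that rose were Eda2r, Polk and Xpc. With the other single clones left out the count of lower genes was 4 of 29 (13.8%) without knockout replicate 3 and 1 (3.4%) in each other case. The 4 were Btg2, Mdm4, Pidd1 and Sesn1. Over all genes 870 to 2056 were lower with 1 clone left out, of 12966 to 13227 tested. The count over all genes thus also changed with the clone left out, and was 1038 of 13183 without knockout replicate 1. The number of lower genes in the pathway moved most with that 1 het clone, and the cause of its lower levels was not tested. This summary by clone was made after the values had been seen.

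**Figure D4:**
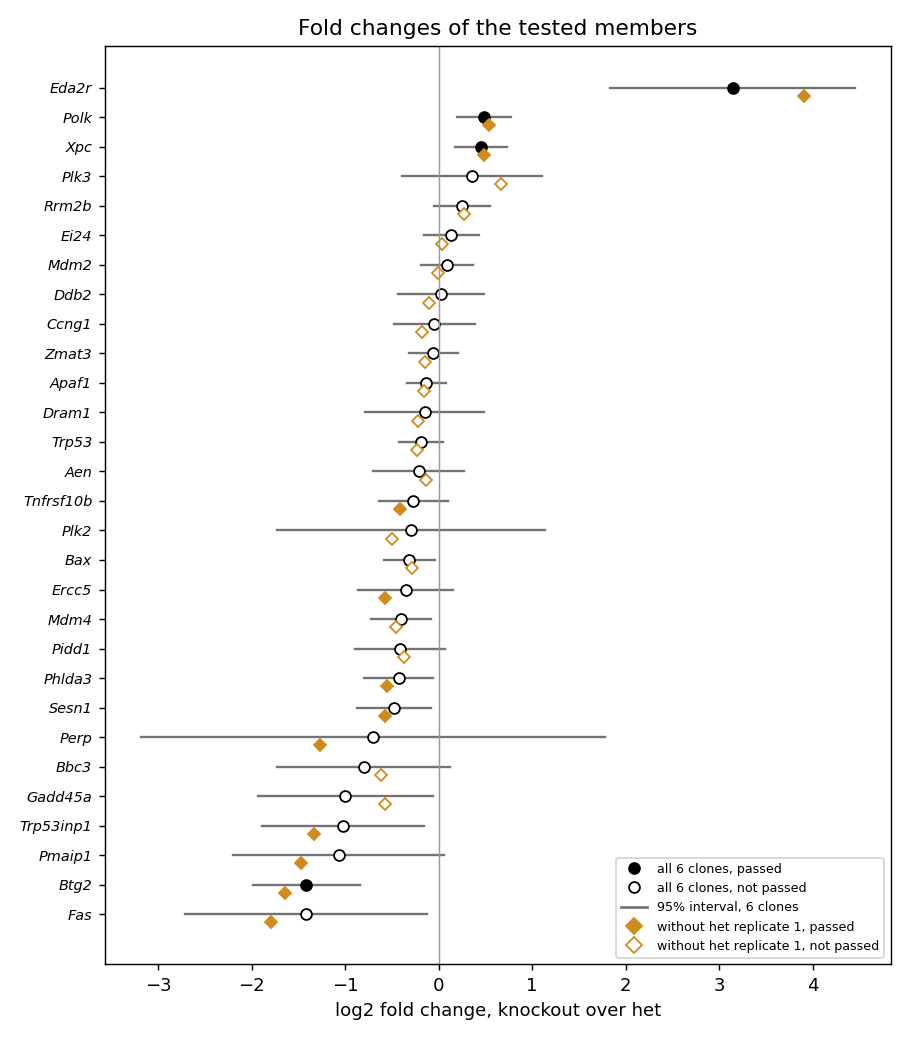
Log2 fold changes of the 29 tested genes, knockout over het, with 95% intervals from all 6 clones (circles) and the value without het replicate 1 (diamonds); filled symbols passed an adjusted p of 0.05. With all clones 3 circles above 0 and 1 below 0 are filled, and without het replicate 1 there are 3 filled diamonds above 0 and 9 below.

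The wider pathway was described with further lists, also chosen with earlier results of these data known, so their shares are a description. Of 30 other p53 targets, 28 were in the files and 25 were tested. In knockout clones 8 of these fell (32.0%, against 14.2% of all tested genes), 1 rose (4.0%, against 13.9%) and 16 did not pass, and their median log2 fold change was -0.28. That median was -0.018 with the local chromosome median subtracted and -0.17 on the log2(FPKM + 1) scale. With the local median subtracted 8 of the 25 were lower (32.0%) and 1 was higher. Over all genes 1519 of 12745 were lower and 1228 higher in that fit. Without knockout replicate 2 there were 5 lower genes of 28 tested (17.9%). Without knockout replicate 1 there were 7 of 28 (25.0%), against 1038 of 13183 over all genes in that fit. Without het replicate 1 there were 2 higher (7.7%) and 10 lower (38.5%) of 26 tested, against 13.5% and 15.6% of all tested genes. Igfbp3, not tested with all clones, was among the lower genes in each. Over all genes 870 to 2056 were lower with 1 clone left out, of 12966 to 13227 tested. With all clones it was 1814 of 12745. With all clones the gene that rose was Cdkn1a, which encodes p21, the inhibitor of cyclin-dependent kinases through which p53 arrests the cycle. It measured 101, 77.1 and 72.3 CPM in knockout clones, against 36.6, 42.8 and 49.0 CPM in het clones. The groups did not overlap, with a log2 fold change of 0.96 (SE 0.17, adjusted p = 0.00757, edgeR), and the call held in all 16 alternatives. The 4 lower genes with the smallest adjusted p were Cd82, a tetraspanin, Bid, a BH3-only death agonist, Thbs1, the matrix protein thrombospondin 1, and Steap3, a metalloreductase. Cd82 stood at 11.4 ± 2.23 CPM in knockout and 46.7 ± 4.27 CPM in het clones, and Bid at 40.3 ± 2.03 and 67.3 ± 2.68 CPM. Thbs1 stood at 689 ± 298 and 4850 ± 1455 CPM and Steap3 at 11.4 ± 2.55 and 35.6 ± 10.7 CPM (adjusted p from 0.000665 for Cd82 to 0.00556 for Steap3, edgeR). Many of these genes have regulators besides p53, and whether p53 acts on any of them in these cells was not measured.

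Upstream of p53, 20 of 22 listed regulators and relatives were tested, of which 2 rose, 2 fell and 16 did not pass (over all tested genes 13.9% rose and 14.2% fell). With 1 clone left out 1 to 2 were higher and 0 to 3 lower, with 0 lower without knockout replicate 1 or 2. Over all genes 695 to 1769 were higher and 870 to 2056 lower in these fits, against 1771 and 1814 with all clones. DESeq2 called 5 of the 20 higher (25.0%), and 2128 of 12745 over all genes. Cdkn2a, whose locus encodes p19Arf, an inhibitor of Mdm2, and p16Ink4a, counted together here, measured 115, 128 and 136 CPM in knockout clones, against 223, 177 and 307 CPM in het clones. The groups did not overlap (log2 fold change -0.90, SE 0.20, adjusted p = 0.018, edgeR), and the call was lost without knockout replicate 1 or 2 (0.0713 in each case, edgeR). Hipk2, a kinase that phosphorylates p53, stood at 126 ± 9.31 CPM in knockout and 63.1 ± 9.92 CPM in het clones (log2 fold change 1.002, adjusted p = 0.0033, edgeR). Ppp1r13l, which encodes the p53 inhibitor iASPP, stood at 19.1 ± 3.06 and 12.4 ± 1.09 CPM (adjusted p = 0.032, edgeR). Chek2, a checkpoint kinase, fell, with 19.6 ± 3.33 CPM in knockout and 29.2 ± 2.93 CPM in het clones (adjusted p = 0.0372, edgeR). The calls of Ppp1r13l and Chek2 were lost when any clone but knockout replicate 3 was left out, with adjusted p of 0.0626 to 0.111 for Ppp1r13l and 0.0555 to 0.105 for Chek2 (edgeR). Chek2 also lost its call with library totals and on both FPKM scales. Trp63 and Trp73, the p53 relatives, did not exceed 0.538 and 0.0561 CPM in any clone.

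**Figure D5:**
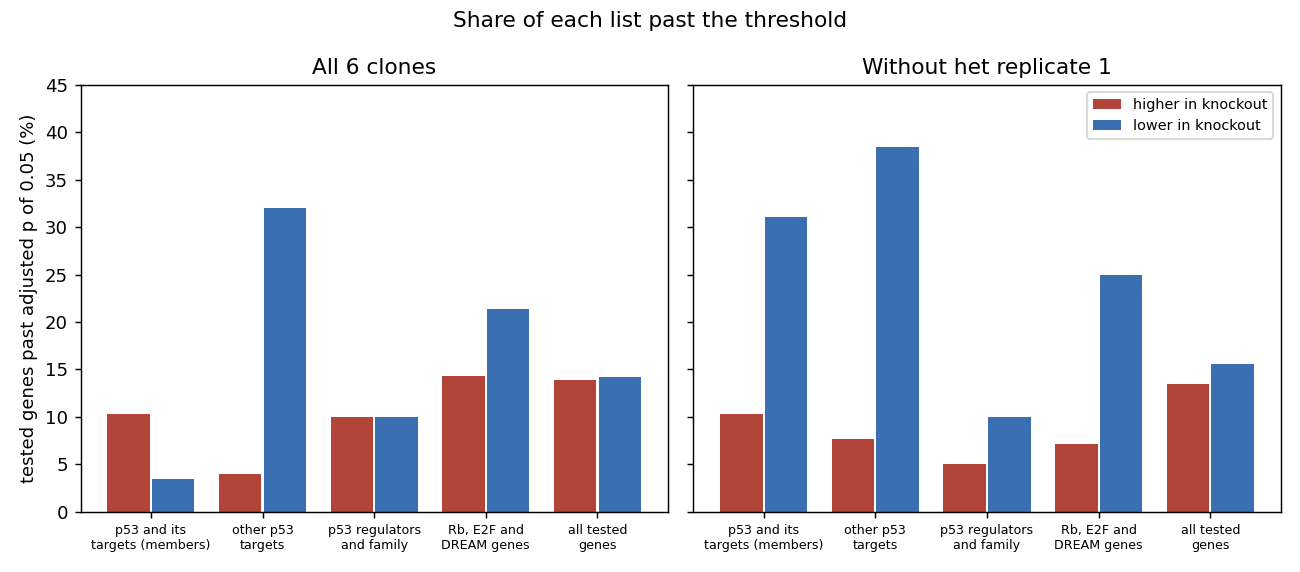
Percent of the tested genes of each list that were higher (red) or lower (blue) in knockout clones at an adjusted p of 0.05, beside all tested genes, with all 6 clones (left) and without het replicate 1 (right). The share of lower genes among p53 and its targets is 3.4% with all clones and 31.0% without het replicate 1, beside 14.2% and 15.6% of all tested genes.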

How the data were processed

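Poly(A) RNA of 6 clones, 3 knockout and 3 het, was sequenced from stranded mRNA libraries, per the labels' protocols. Trimmomatic 0.36, kallisto 0.42.5 and edgeR (no version) are named with build GRCm38.p4, per the submitters' processing notes. The strand setting of the counting is not stated in the sources used here. The authors deposited estimated counts for 96626 transcripts. They deposited FPKM values for 24799 transcripts, and a comparison with log2 fold change, log2 mean CPM, p-value and adjusted p-value for the same number, per the file headers.

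Of the transcripts, 95213 were assigned to genes with GENCODE M21 (GRCm38) and 260 through the authors' deposited table; 1153 were left out (0.017% to 0.028% of counts). Counts were summed per gene and rounded, filtered with filterByExpr (minimum count 10, total 15), TMM-scaled and tested in edgeR 4.0.16 (robust quasi-likelihood F test, R 4.3.3) and p-values were adjusted over 12745 genes by the Benjamini-Hochberg method. Standard errors came from the F statistic, and 95% intervals from its degrees of freedom. CPM values and counting intervals use scaled library sizes, and counting intervals cover counting error only; 3 counts correspond to 0.155 to 0.188 CPM in a library. DESeq2 1.42.0 and limma 3.58.1 (voom, and log2(FPKM + 1) or log2(FPKM + 0.1)) were alternatives, with RLE scaling, library totals, other filters, only transcripts of the authors' table, the median of 41 neighbouring genes taken out, and each clone left out. All members are given; from other lists, up to 4 passing genes with the smallest adjusted p, with Cdkn1a and Cdkn2a in any case. The members and lists were chosen with earlier results of these data known. The grouping of members by role and the summaries by clone were made after their values had been seen. Clones of a genotype differed by more than counting noise, so none was counted as a repeat. The fitting procedure was first tested on simulated counts.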

Additional observations from a re-analysis of the deposited data

How the results depend on the processing

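Over all genes, 695 to 1769 were higher and 870 to 2056 lower in knockout clones with 1 clone left out. For p53 and its targets these counts were 1 to 3 and 1 to 9. The count of lower members, 1 with all clones, was 2 with library totals, with no filter on low counts, with the median of neighbouring genes subtracted and with only the transcripts of the authors' table. That was 6.7% to 7.1% of the members tested. Over all genes 1704 of 12745, 1671 of 20396, 1519 of 12745 and 1554 of 10791 were lower in these fits, in that order. It was 5 of 29 (17.2%) with DESeq2 (Btg2, Fas, Mdm4, Sesn1 and Trp53inp1), which called 2237 of all 12745 tested genes lower. The added gene was Bax with library totals or the authors' transcripts, Trp53i11 with no filter (adjusted p = 0.0215, edgeR) and Fas with the local median taken out. No paired analysis was possible because the labels give no replicate numbers that the genotypes share.

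Directions turned for genes that did not pass. With the local median taken out the log2 value was 0.015 for Bax, 0.11 for Aen and -0.046 for Ei24. Perp gave 0.29 with limma-voom, 0.049 on log2(FPKM + 1), 0.31 on log2(FPKM + 0.1) and 0.20 without het replicate 2. Ddb2 gave -0.028 with the authors' transcripts, -0.14 without knockout replicate 3 and -0.11 without het replicate 1. Ccng1 gave 0.092 and Plk2 0.13 without knockout replicate 3, and 0.061 and 0.077 without het replicate 2. Mdm2 gave -0.0069 without het replicate 1, and without het replicate 3 Zmat3 gave 0.0056 and Dram1 0.11. With 1 clone left out the values ran from -0.0069 to 0.15 for Mdm2, from -0.18 to 0.092 for Ccng1, from -1.26 to 0.20 for Perp, from -0.58 to 0.13 for Plk2, from -0.14 to 0.13 for Ddb2, from -0.14 to 0.0056 for Zmat3 and from -0.35 to 0.11 for Dram1. The causes were not tested.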

Other observations

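Large T also binds the Rb family, which restrains the E2F factors, and the DREAM complex mediates repression of cell cycle genes downstream of p21. Of 28 tested genes of these groups 4 rose, 6 fell and 18 did not pass in knockout clones (14.3% and 21.4%, against 13.9% and 14.2% of all tested genes), and their median log2 fold change was -0.22. With 1 clone left out 0 to 2 were higher and 3 to 7 lower, with the fewest, 0 higher and 3 lower, without knockout replicate 2. Higher genes numbered 1 without knockout replicate 1 or het replicate 2, and 2 without knockout replicate 3, het replicate 1 or het replicate 3. Over all genes 695 to 1769 were higher and 870 to 2056 lower with 1 clone left out. With the local chromosome median subtracted 2 genes of the list were higher and 4 lower, against 1228 and 1519 of 12745 over all genes. The median of the list was then -0.050. Aurkb, a mitotic kinase gene, stood at 75.6 ± 0.969 CPM in knockout and 109 ± 3.89 CPM in het clones, and Birc5, which encodes survivin, at 108 ± 11.8 and 164 ± 12.4 CPM (SD, n = 3 each; adjusted p = 0.00495 and 0.0101, edgeR). Tk1, thymidine kinase, fell, with 154 ± 7.62 CPM in knockout and 209 ± 5.97 CPM in het clones (adjusted p = 0.011, edgeR). Plk1, a mitotic kinase gene, went the other way, at 186 ± 6.55 CPM in knockout and 137 ± 2.27 CPM in het clones (adjusted p = 0.00927, edgeR), and its call was lost without knockout replicate 2 (0.0551, edgeR) and with the local chromosome median taken out (0.121, edgeR). Rb1 itself stood at 17.7 ± 1.56 CPM in knockout and 23.7 ± 4.58 CPM in het clones and E2f1 at 75.7 ± 3.05 and 70.0 ± 1.35 CPM, and neither passed (adjusted p = 0.107 and 0.351, edgeR).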
